A study of Mus musculus with 24 samples.

Results

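The genes described here are receptors for the constant part of antibodies, with their shared signalling chain, and surface proteins with which leukocytes hold on to vessel walls and to each other. The 9 genes are Fcgr1, Fcgr2b, Fcgr3, Fcer1g, Selplg, Itgam, Itgb2, Icam1 and Ptprc, and 8 of them were among the 16387 genes with a row in at least 1 of the 2 expression tables. They were listed by symbol and were picked because Selplg and the Fc receptors were higher in injured retinas at 8 days, so the 8-day differences of these genes are given as a description and are not tested. The 5-week differences were not part of that choice. At 8 days 8 of the 9 genes had a row, and at 5 weeks 4 did. Itgam had no row in either table, and Fcgr1, Fcgr2b, Ptprc and Icam1 had none at 5 weeks.

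RNA was measured in whole retinas of 24 adult male C57BL/6J mice, 1 retina a mouse, with 6 mice in each of 4 groups. The bTBI groups (blast-mediated traumatic brain injury) had received a blast wave inside a closed chamber 8 days or 5 weeks earlier, and the retina came from the eye that faced the wave. The sham groups at each time were handled in the same way without the blast. The labels name no other allele or agent. The labels name retinal ganglion cells as the cell type, but whole retinas were extracted, and 12 of 12 microglia markers had a row at 8 days. The RNA kit differed between the times, so kit and time cannot be told apart.

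Fc gamma receptors bind immunoglobulin G. Fcgr1 encodes the high-affinity receptor and Fcgr3 a low-affinity one, and both need the chain encoded by Fcer1g, whose cytoplasmic motif (ITAM) recruits kinases such as Syk. Fcgr2b encodes the inhibitory receptor, which carries its own opposing motif (ITIM). Selplg encodes PSGL-1, the ligand through which leukocytes roll on selectins. Itgb2 encodes CD18, the beta chain of the leukocyte integrins, Itgam the alpha chain that pairs with it as complement receptor type 3, and Icam1 a ligand of these integrins on endothelium and glia. Ptprc encodes CD45, a tyrosine phosphatase on nucleated blood cells. In the healthy retina most cells that carry these proteins are microglia, and Icam1 is also made by vessels and Müller glia.

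On GRCm38, Fcgr2b, Fcgr3 and Fcer1g lie on the minus strand of chromosome 1: Fcgr2b (ENSMUSG00000026656.15) at 170958617 to 170976547, Fcgr3 (ENSMUSG00000059498.13) at 171051174 to 171064935 and Fcer1g (ENSMUSG00000058715.11) at 171229572 to 171234365. Ptprc (ENSMUSG00000026395.16) is on the same strand at 138062861 to 138175708. Fcgr1 (ENSMUSG00000015947.10) is on chromosome 3 at 96282909 to 96293969, also on the minus strand. Selplg (ENSMUSG00000048163.13) is on chromosome 5, Itgb2 (ENSMUSG00000000290.13) on chromosome 10 and Icam1 (ENSMUSG00000037405.8) on chromosome 9. All are protein coding. Fcgr2b and Fcgr3 have nearly identical extracellular exons, so the counting could split their reads, and the separate values of this pair are uncertain to that extent.

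RefSeq promoters (GRCm38.p6) were at hand for 7 of the 9 genes. The 250 bases before the start of 3 Fc receptor genes and of Icam1 are shown, since Icam1 is the gene whose values ran apart from the others. They are written 5′ to 3′ on the strand of the gene. Capitals mark matches on either strand to GAGGAA (the core letters bound by PU.1, a myeloid factor), to TTCNNNGAA (the spacing bound by STAT factors) and to GGAANTTCC (a letter pattern of NF-kB sites), and no marked matches overlap. The windows are chr3:96293970-96294219 for Fcgr1, chr1:171059404-171059653 for Fcgr3, chr1:171234350-171234599 for Fcer1g, all on the minus strand, and chr9:21015690-21015939 for Icam1 on the plus strand.
Fcgr1: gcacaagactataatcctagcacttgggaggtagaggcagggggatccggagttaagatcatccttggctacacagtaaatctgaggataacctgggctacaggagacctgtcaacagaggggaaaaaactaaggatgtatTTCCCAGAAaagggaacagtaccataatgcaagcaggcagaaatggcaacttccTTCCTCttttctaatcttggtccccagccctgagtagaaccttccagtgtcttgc
Fcgr3: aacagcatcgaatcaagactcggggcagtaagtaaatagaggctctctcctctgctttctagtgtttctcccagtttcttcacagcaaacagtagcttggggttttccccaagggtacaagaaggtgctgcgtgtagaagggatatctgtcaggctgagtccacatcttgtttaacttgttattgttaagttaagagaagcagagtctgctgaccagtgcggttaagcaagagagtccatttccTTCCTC
Fcer1g: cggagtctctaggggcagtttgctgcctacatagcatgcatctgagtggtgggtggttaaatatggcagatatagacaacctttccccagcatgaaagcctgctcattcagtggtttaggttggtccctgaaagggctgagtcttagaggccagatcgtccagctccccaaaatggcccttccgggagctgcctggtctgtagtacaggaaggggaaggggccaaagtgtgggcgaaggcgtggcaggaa
Icam1: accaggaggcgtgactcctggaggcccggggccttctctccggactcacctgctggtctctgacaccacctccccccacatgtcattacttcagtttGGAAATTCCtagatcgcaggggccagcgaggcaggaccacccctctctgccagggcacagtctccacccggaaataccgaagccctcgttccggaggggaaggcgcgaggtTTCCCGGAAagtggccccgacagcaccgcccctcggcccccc
In the Fcgr1 window TTCCCAGAA begins 109 bases before the start and TTCCTC, the reverse complement of GAGGAA, 55 bases before it. In the Fcgr3 window TTCCTC ends at the base before the start. The Icam1 window holds GGAAATTCC, which begins 153 bases before the start, and TTCCCGGAA, which begins 42 bases before it. The Fcer1g window matched none of the patterns. Among all 32851 windows of this length, 23.3% held GAGGAA, 7.02% held TTCNNNGAA and 0.813% held GGAANTTCC on either strand. These matches describe letters and say nothing about binding in these retinas.

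Values are normalised read counts on the CPM scale, as the authors deposited them for each time separately. Between 14301989 and 25158638 reads per retina stood behind them. Several retinas of the 8-day bTBI group stood apart in markers of other cells. In bTBI replicate 3 the summed value of 3 oligodendrocyte markers was 3452 CPM, against 72.7 to 206 CPM in the other 5, and that of 4 monocyte and macrophage markers was 143 CPM, against 25.5 to 46.3 CPM. In bTBI replicates 5 and 6 the summed lens markers were 3765 and 7376 CPM, against 38.4 to 390 CPM in the other 4 and 8.55 to 705 CPM in sham retinas. The ratios of means of the genes described here, the microglia marker count and the count over all pathway lists at 8 days are therefore also given without these retinas. Shares, levels per kilobase and correlations are given only with all retinas.

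The first comparison asked how the retina differed between bTBI and sham mice 8 days after the blast. All 8 genes had higher mean values in bTBI than in sham retinas, between 2.17 and 4.90 times as high. An adjusted p under 0.005 (limma) was reached by 2.25% of the 14922 genes tested. No p is given for the 8 genes at this time, because they were chosen on this contrast. A gene entered the table when about 1 CPM was reached in 6 of the 12 retinas. Among sham retinas that level was reached in 4 for Fcgr1, 2 for Fcgr2b, 3 for Icam1 and 1 for Ptprc, so these 4 genes had their rows through the bTBI retinas. Fcgr3, Fcer1g, Selplg and Itgb2 reached it in 6 of 6 sham retinas. In whole tissue, more cells that carry a transcript and more transcript per cell cannot be told apart.

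Fcgr3 encodes the low-affinity activating receptor. Its lowest, median and highest values were 4.01, 6.71 and 19.7 CPM in bTBI retinas, against 1.43, 2.19 and 3.84 CPM in sham retinas. Each of the 6 bTBI values exceeded every sham value, a separation that 1.59% of all genes tested had. The means were 8.77 ± 5.91 CPM in bTBI and 2.34 ± 0.838 CPM in sham retinas (SD, n = 6 each), a ratio of 3.75 and a difference of 1.40 on the log2(CPM + 1) scale (SE 0.28). Without bTBI replicate 3 the ratio was 2.82.

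Fcgr1, the high-affinity receptor, had a narrower spread relative to its mean. It ranged from 1.74 to 5.80 CPM with a median of 3.24 CPM in bTBI retinas, against 0.787 to 1.43 CPM with a median of 1.03 CPM in sham retinas, with no overlap. The means were 3.48 ± 1.43 CPM in bTBI and 1.07 ± 0.234 CPM in sham retinas (SD, n = 6 each), a ratio of 3.26 and a log2 difference of 1.06 (SE 0.18).

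Fcgr2b, the inhibitory receptor, had the largest ratio of the 8, 4.90, and it rested in good part on 1 retina. The lowest, median and highest values were 1.13, 3.31 and 9.68 CPM in bTBI retinas, against 0.436, 0.795 and 1.24 CPM in sham retinas. The highest was bTBI replicate 3 and the lowest, bTBI replicate 2, lay within the sham range. The means were 3.98 ± 2.94 CPM in bTBI and 0.813 ± 0.304 CPM in sham retinas (SD, n = 6 each), with a log2 difference of 1.30 (SE 0.27). Without replicate 3 the ratio was 3.50, still the largest of the 8. The ratios of Fcgr3 and Fcer1g also fell without it, to 2.82 and 2.75.

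Fcer1g, the chain that the activating receptors signal through, followed Fcgr3. It had 3.16, 6.34 and 15.4 CPM as lowest, median and highest values in bTBI retinas, against 1.02, 1.95 and 3.37 CPM in sham retinas, and 5 of the 6 in the bTBI group exceeded every sham value. The means were 7.38 ± 4.21 CPM in bTBI and 2.10 ± 0.834 CPM in sham retinas (SD, n = 6 each), a ratio of 3.51 and a log2 difference of 1.35 (SE 0.26).

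The 3 Fc gamma receptors made up similar parts of their sum in both groups. Per kilobase of exon, Fcgr3 made up 69.9 ± 5.95% of their sum in bTBI retinas and 69.6 ± 7.68% in sham retinas, Fcgr1 20.6 ± 4.06% in bTBI and 23.0 ± 8.49% in sham retinas, and Fcgr2b 9.54 ± 3.02% in bTBI and 7.38 ± 2.34% in sham retinas (SD, n = 6 each). For each receptor the ranges of the groups overlapped. How the sum splits between receptors depends on the exon lengths used. That of Fcgr2b, 5.79 kilobases, is the union over its transcripts and may understate its part. The level of Fcer1g over that of Fcgr1 plus Fcgr3, per kilobase, was 1.36 ± 0.215 in bTBI retinas and 1.37 ± 0.492 in sham retinas. Whether the mix of activating and inhibitory transcripts differed was not tested, since these values chose the genes.

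Selplg, the selectin ligand, had the most even response. Its lowest, median and highest values were 11.5, 13.4 and 21.7 CPM in bTBI retinas, against 5.58, 6.29 and 7.54 CPM in sham retinas. The gap between the groups was wider than the whole sham range. The means were 14.8 ± 3.95 CPM in bTBI and 6.36 ± 0.689 CPM in sham retinas (SD, n = 6 each), a ratio of 2.33 and a log2 difference of 1.07 (SE 0.13), the smallest standard error of the 8.

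Itgb2, the integrin beta chain, ranged from 2.64 to 10.7 CPM with a median of 5.01 CPM in bTBI retinas, against 1.26 to 1.96 CPM with a median of 1.77 CPM in sham retinas. Every bTBI retina was above every sham retina. The means were 5.59 ± 2.75 CPM in bTBI and 1.71 ± 0.244 CPM in sham retinas (SD, n = 6 each), a ratio of 3.28 and a log2 difference of 1.20 (SE 0.20).

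Ptprc, the leukocyte phosphatase, was near the lower limit of the table. It ranged from 1.46 to 3.71 CPM with a median of 2.24 CPM in bTBI retinas, against 0.484 to 1.22 CPM with a median of 0.666 CPM in sham retinas, again with no overlap. Only 10 to 18 reads a sham retina stood behind these values, and the means were 2.35 ± 0.786 CPM in bTBI and 0.756 ± 0.282 CPM in sham retinas (SD, n = 6 each), a ratio of 3.11 and a log2 difference of 0.92 (SE 0.15).

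Icam1, the integrin ligand, did not follow the others. It ranged from 1.77 to 8.96 CPM with a median of 3.42 CPM in bTBI retinas, against 0.272 to 6.80 CPM with a median of 1.21 CPM in sham retinas. The groups overlapped widely, and 2 of 6 in the bTBI group exceeded every sham value. The highest sham value was that of replicate 2, whose nearest neighbour had 2.72 CPM. The means were 4.73 ± 3.30 CPM in bTBI and 2.18 ± 2.41 CPM in sham retinas (SD, n = 6 each), a ratio of 2.17. The log2 difference of 0.92 (SE 0.41) ran from 0.71 to 1.24 when 1 retina was left out, and it was 1.24 without sham replicate 2.

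**Figure D1:**
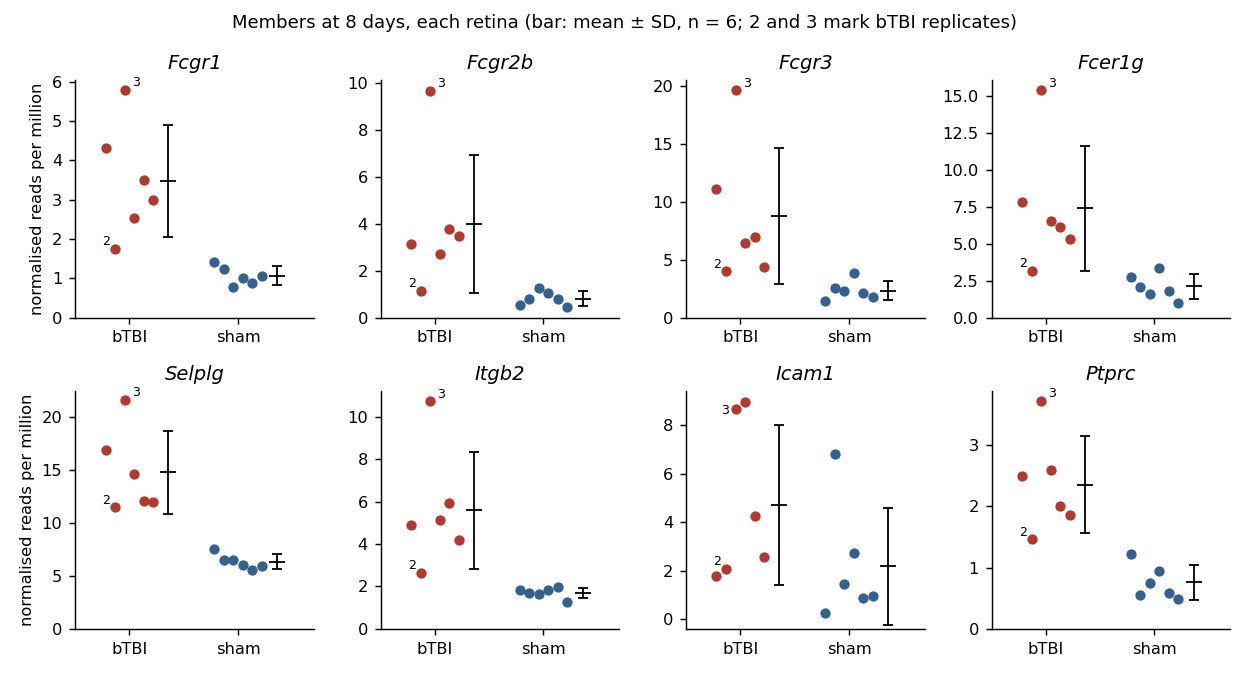
Normalised reads (CPM, vertical axes, a scale of its own for each gene) of the 8 genes in each retina at 8 days, bTBI left and sham right. Points are retinas, bars the mean ± SD (n = 6 each), and the digits mark bTBI replicates 2 and 3. The groups do not overlap for Fcgr1, Fcgr3, Selplg, Itgb2 and Ptprc, and 1 sham retina at 6.80 CPM lies among the bTBI values of Icam1.

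The same bTBI retinas stood at the ends of the range for most genes. Replicate 3 was highest for 7 of the 8 genes and 2nd for Icam1, and replicate 2 was lowest for the same 7 and last but 1 for Icam1. Between these retinas the values differed 1.89-fold for Selplg and 8.56-fold for Fcgr2b. Over the 12 retinas, the log2 values of the 21 pairs of genes without Icam1 had Pearson correlations of 0.89 to 0.97, which include the difference between the groups. Within the 6 bTBI retinas these pairs had correlations of 0.77 to 0.97, with a median of 0.92. Within the 6 sham retinas they ran from -0.63 to 0.76, with a median of 0.34. The pairs with Icam1 had a median of 0.58 within bTBI and 0.01 within sham retinas. These correlations are descriptions over few retinas that share their libraries and scaling, and none was computed without replicate 3.

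**Figure D2:**
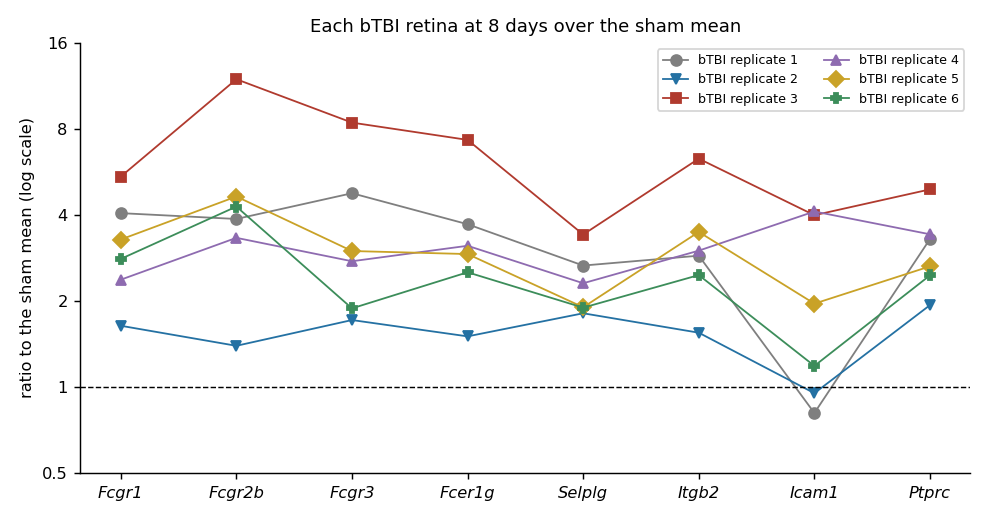
Value of each bTBI retina at 8 days over the mean of the 6 sham retinas (vertical axis, log scale, dashed line at 1) for the 8 genes (horizontal axis), 1 line a retina. The line of replicate 3 is the highest and that of replicate 2 the lowest for each gene but Icam1, where replicates 1 and 2 lie below the sham mean.

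Replicate 3 also had the highest summed value of the 12 microglia markers, 337 CPM, against 176 to 281 CPM in the other 5 bTBI retinas. Without it the ratio of bTBI to sham means was 2.83 for Fcgr1, 3.50 for Fcgr2b, 2.82 for Fcgr3, 2.75 for Fcer1g, 2.11 for Selplg, 2.67 for Itgb2, 2.75 for Ptprc and 1.80 for Icam1. All 8 thus remained higher in bTBI retinas. Without the lens-rich replicates 5 and 6 the ratios were 2.46 to 5.12. The part of the oligodendrocyte, monocyte and lens signals in these values was not tested.

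Compared per kilobase of exon, Fcer1g had the highest level of the 8 in bTBI retinas, 8.44 ± 4.81 CPM per kilobase, and Ptprc the lowest, 0.128 ± 0.0429 CPM per kilobase (SD, n = 6). Between them, in falling order, stood Fcgr3, Selplg, Itgb2, Fcgr1, Icam1 and Fcgr2b, and the ranges of all neighbours overlapped. In sham retinas Fcer1g was again first with 2.40 ± 0.954 CPM per kilobase and Ptprc last with 0.0413 ± 0.0154. There Selplg stood before Fcgr3, and neighbours were apart only between Fcgr3 and Itgb2, between Fcgr1 and Fcgr2b and between Fcgr2b and Ptprc. The lengths are unions of the exons of all annotated transcripts, 18.3 kilobases for Ptprc and 5.79 for Fcgr2b. Such a union can exceed the length of 1 transcript and then understates the level. The order, and the last place of Ptprc, therefore depend on the length used.

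Markers of resident microglia were also higher at 8 days. Of 12 microglia markers, 8 rose in bTBI retinas (limma, adjusted p under 0.005) and none fell, and their summed value was 176 to 337 CPM in bTBI retinas, against 119 to 170 CPM in sham retinas. The count was 7 without bTBI replicate 3, 3 without the lens-rich pair and 4 to 9 over the fits without 1 retina, and 7 of the 8 that rose reached 1 CPM in 6 of 6 sham retinas. Set against this sum, the means of the genes described here were also higher in bTBI retinas. The sum weighs Csf1r most, with a mean of 74.9 of 146 CPM in sham retinas. The ratios of bTBI to sham means of the 12 markers ran from 1.38 (Csf1r) to 3.31 (Aif1). A higher part of the sum therefore does not set these genes apart from single microglia markers. Fcgr1 was 1.35 ± 0.28% of the microglia sum in bTBI retinas and 0.74 ± 0.17% in sham retinas, Itgb2 2.16 ± 0.61% in bTBI and 1.17 ± 0.11% in sham retinas, and Ptprc 0.93 ± 0.14% in bTBI and 0.51 ± 0.13% in sham retinas (SD, n = 6 each). None of these 3 overlapped between the groups, but the share of all genes that separate on this measure was not computed. Fcgr1 and Ptprc had their rows through the bTBI retinas, so their separation is conditional on high bTBI values. Selplg differed less, 5.94 ± 0.64% in bTBI retinas and 4.41 ± 0.65% in sham retinas, and for Icam1 no bTBI retina was above every sham retina. These shares use the values the genes were chosen on and carry no test.

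**Figure D3:**
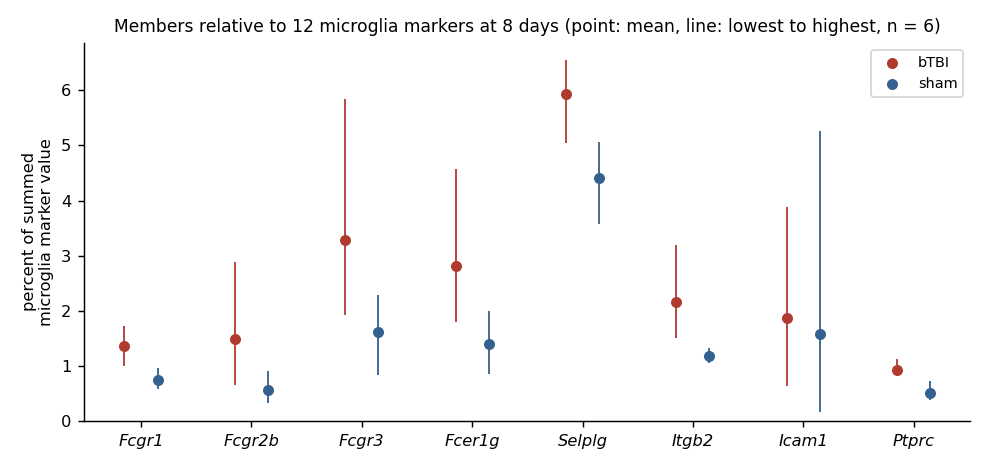
Value of each gene as a percent of the summed value of 12 microglia markers in the same retina at 8 days (vertical axis), bTBI left and sham right of each pair. Points are means and lines run from the lowest to the highest of 6 retinas. The lines of Fcgr1, Itgb2 and Ptprc do not overlap between bTBI and sham, and those of the other genes do. Fcgr1 and Ptprc had their rows through the bTBI retinas.

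Markers of blood-borne cells and of macrophages were mostly missing from the 8-day table. A row needed about 1 CPM in 6 retinas, so a marker that was high in fewer retinas could not appear. A missing row therefore does not show that the cells were absent. None of 10 neutrophil, 6 B cell and 5 mast cell markers had a row, and of 11 T and NK cell markers only Lck did. Of 13 monocyte and macrophage markers 4 had a row (Lyz2, Lyve1, Cd74 and H2-Aa), while Ccr2, Ly6c2, Plac8 and Mrc1 did not. The 4 summed to 25.5 to 143 CPM in bTBI retinas and 17.0 to 41.8 CPM in sham retinas, and none passed the test with limma, edgeR or DESeq2, although 3 had an unadjusted p under 0.05. All 7 endothelial markers had a row, and none passed the test with any of the 3 tools, with 1 at an unadjusted p under 0.05.

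The genes whose values were most like those of Selplg over the 12 retinas at 8 days, by Pearson's r of the log2 values among 12770 genes with a mean of at least 3 CPM, were Nes, an intermediate filament gene (r = 0.96), Ly86 (0.95), the microglial receptor genes Cx3cr1 (0.95) and Trem2 (0.95), and Gfap, the filament of reactive glia (0.95). For Fcer1g they were the complement genes C1qa (0.99) and C1qb (0.98), Litaf (0.99), Tyrobp, another ITAM adaptor (0.98), and Laptm5 (0.98). Within the groups, that is after the group means were taken out, the Fcer1g set had r of 0.93 to 0.97 and the Selplg set 0.74 to 0.87. These values include bTBI replicate 3, and r without it was not computed. That retina had 738 CPM of Gfap, against a mean of 101 CPM in the other bTBI retinas. For Tyrobp it had 28.2 CPM, against a mean of 6.98 CPM in the others. The 2 sets had no gene in common, although Selplg and Fcer1g themselves had r = 0.93 over the 12 retinas. The ranking includes the difference between the groups, so sets this short do not mark separate patterns.

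The wider pathways of these genes were covered by 8 lists with 124 genes, of which 72 had a row at 8 days. Of these 72, 10 rose in bTBI retinas and none fell, against 1.27% of all genes tested that rose and 0.985% that fell. The count was 10 without bTBI replicate 3, 3 without the lens-rich pair, and between 5 (without sham replicate 2) and 17 (without bTBI replicate 2) when 1 retina was left out. DESeq2 called 21 of the 72. The 9 genes themselves are in none of these lists. Of the 72, 60 reached 1 CPM in 6 of 6 sham retinas, and 5 of the 10 that rose were among them (Ighm, Cx3cr1, Cd44, Lyn and F11r). The other 5 (Rac2, Fyb, Vav1, Blnk and Fermt3) reached it in 0 to 3 sham retinas and needed bTBI retinas for their rows. Rac2, Fyb, Vav1 and Blnk, with 0 or 1 sham retina, had to be higher in bTBI retinas to be listed. High bTBI values helped to list Fermt3, with 3 sham retinas, but it did not have to be higher. The count carries no support from these 5.

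Among 4 other Fc receptor genes with a row none passed the test with limma or edgeR, 1 passed with DESeq2, and 3 had an unadjusted p under 0.05, against 17.3% of all genes. Fcrls, an Fc receptor-like gene of microglia, had 8.10 ± 7.72 CPM in bTBI and 1.99 ± 1.40 CPM in sham retinas, and Trim21, the cytosolic antibody receptor, had 7.61 ± 1.05 CPM in bTBI and 4.95 ± 0.931 CPM in sham retinas (SD, n = 6 each). Fcrls was at 23.6 CPM in bTBI replicate 3, and without it the bTBI mean was 5.00 ± 1.55 CPM (SD, n = 5) and the ratio to sham 2.52 in place of 4.08. The median log2 difference of the 4 was 0.46, beside -0.0002 over all genes. Of 3 immunoglobulin genes with a row, Ighm, the heavy chain of immunoglobulin M, rose to 3.82 ± 0.792 CPM in bTBI retinas, against 1.53 ± 0.262 CPM in sham retinas (log2 difference 0.92, SE 0.12, limma adjusted p = 0.000325, 6 of 6 above every sham retina). None of the 6 B cell markers had a row beside it, which does not show that B cells were absent.

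Of 16 genes of ITAM and ITIM signalling, 3 rose and none fell, with a median log2 difference of 0.61. The count was between 1 and 7 over the fits without 1 retina. Vav1 and Blnk each reached 1 CPM in 1 of 6 sham retinas and were listed through their bTBI values, so their p is conditional on high bTBI values. Lyn, the Src-family kinase that phosphorylates these motifs, had 5.00 ± 1.41 CPM in bTBI and 2.08 ± 0.231 CPM in sham retinas (limma adjusted p = 0.000755). Vav1, an exchange factor for Rac, had 2.70 ± 1.29 CPM in bTBI and 0.708 ± 0.287 CPM in sham retinas (adjusted p = 0.00232, limma), and Blnk, an adaptor of Syk, 2.48 ± 0.733 CPM in bTBI and 0.736 ± 0.568 CPM in sham retinas (adjusted p = 0.00449, limma). The call of Vav1 was lost when any of bTBI replicates 5 and 6 and sham replicates 1, 2, 5 and 6 was left out, with adjusted p of 0.00548 to 0.00787 (limma). That of Blnk was lost without 10 of the 12 retinas, all but bTBI replicate 2 and sham replicate 4, with adjusted p of 0.00508 to 0.0140 (limma). Tyrobp had 10.5 ± 8.87 CPM in bTBI and 2.90 ± 0.918 CPM in sham retinas, and Syk 1.69 ± 0.983 CPM in bTBI and 1.14 ± 0.450 CPM in sham retinas, and neither passed the test. Tyrobp was at 28.2 CPM in bTBI replicate 3, and without it the ratio was 2.41 in place of 3.63.

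Of 14 leukocyte integrins and their activators, 3 rose and none fell, with a median log2 difference of 0.26. Fermt3, the kindlin that activates integrins in blood cells, had 2.66 ± 0.692 CPM in bTBI and 0.960 ± 0.366 CPM in sham retinas (limma adjusted p = 0.00126). Rac2, the Rac GTPase of blood cells, had 2.17 ± 0.943 CPM in bTBI and 0.505 ± 0.249 CPM in sham retinas (adjusted p = 0.00148, limma), and Fyb, an adaptor that couples receptor signals to integrins, 2.08 ± 0.931 CPM in bTBI and 0.610 ± 0.187 CPM in sham retinas (adjusted p = 0.0038, limma). Rac2 and Fyb reached 1 CPM in 0 sham retinas and were listed through their bTBI values, so their p is conditional on high bTBI values. Fermt3 reached it in 3 sham retinas and also needed bTBI retinas, so its p is conditional in part. The call of Rac2 was lost without sham replicate 2 (limma adjusted p = 0.00543), and that of Fyb when any 1 sham retina or any of bTBI replicates 1, 4, 5 and 6 was left out, with adjusted p of 0.00555 to 0.0124 (limma). Over the fits without 1 retina the count was between 1 and 3.

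Of 10 genes of the selectins and of selectin ligand synthesis 1 rose. Cd44, a receptor that can also carry selectin ligands and is abundant on Müller glia after injury, had 26.3 ± 5.73 CPM in bTBI and 12.9 ± 1.58 CPM in sham retinas (log2 difference 0.96, SE 0.13, limma adjusted p = 0.000409). Of 12 endothelial and junctional adhesion genes, F11r, a junctional adhesion molecule, rose to 14.5 ± 1.80 CPM in bTBI retinas, against 9.42 ± 1.48 CPM in sham retinas (limma adjusted p = 0.00203), a call that was lost when any of bTBI replicates 5 and 6 and sham replicates 1, 2, 3, 5 and 6 was left out, with adjusted p of 0.00537 to 0.00703 (limma). Vcam1 had 37.7 ± 10.3 CPM in bTBI and 23.7 ± 5.91 CPM in sham retinas and did not pass the test. Of 5 chemokine and receptor genes Cx3cr1 rose, to 21.5 ± 5.96 CPM in bTBI retinas, against 8.66 ± 1.28 CPM in sham retinas (limma adjusted p = 0.000347), and of 8 partners and substrates of CD45 none passed the test with limma, edgeR or DESeq2, or had an unadjusted p under 0.05. Without the lens-rich replicates 5 and 6, no gene of the ITAM, integrin or endothelial lists passed the test, while Ighm, Cd44 and Cx3cr1 did.

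The second comparison asked whether bTBI and sham retinas differed 5 weeks after the blast. None of the 4 genes with a row passed the test with limma, edgeR or DESeq2, against 0.835% of the 15920 genes tested (limma), and 1 had an unadjusted p under 0.05. At this time 133 genes passed, 2 (0.0126%) higher and 131 (0.823%) lower in bTBI retinas, and 10.9% of genes had an unadjusted p under 0.05.

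Selplg had 2.54, 3.09 and 3.66 CPM as lowest, median and highest values in bTBI retinas, against 2.32, 3.21 and 3.91 CPM in sham retinas. The bTBI values lay wholly within the sham range. The means were 3.09 ± 0.415 CPM in bTBI and 3.10 ± 0.556 CPM in sham retinas (SD, n = 6 each), and the log2 difference of 0.00 had a 95% interval of -0.21 to 0.22 (limma adjusted p = 0.997). The difference of 1.07 at 8 days was used to choose the gene and came with another RNA kit, and the times were not compared in a test.

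Fcer1g had 1.27, 1.66 and 2.72 CPM in bTBI retinas, against 1.54, 1.76 and 2.41 CPM in sham retinas, with wide overlap. The log2 difference was -0.03, with an interval of -0.28 to 0.22 (limma adjusted p = 0.968). Itgb2 had 0.676, 1.02 and 1.48 CPM in bTBI retinas, against 0.409, 1.08 and 1.25 CPM in sham retinas, and its log2 difference was 0.08, with an interval of -0.21 to 0.36 (limma adjusted p = 0.920). Neither differed by more than the spread between retinas.

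Fcgr3 had the largest difference of the 4. Its lowest, median and highest values were 0.940, 1.16 and 2.10 CPM in bTBI retinas, against 0.596, 0.944 and 1.12 CPM in sham retinas, and 3 of 6 in the bTBI group exceeded every sham value. The means were 1.35 ± 0.451 CPM in bTBI and 0.913 ± 0.206 CPM in sham retinas (SD, n = 6 each), a ratio of 1.48. The log2 difference was 0.28 with an interval of 0.02 to 0.54, and the p of 0.0342 did not hold after adjustment over all genes (limma adjusted p = 0.386). About 1 CPM was reached in 5 of 6 bTBI and 2 of 6 sham retinas, so the row of Fcgr3 at 5 weeks rested mainly on the bTBI retinas, and its difference and p are conditional on that. The difference was 0.20 without bTBI replicate 1, and 10 to 34 reads a retina stood behind these values. The adjusted p lay between 0.317 and 0.972 over the alternatives tried (limma, edgeR and DESeq2).

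The level of Fcer1g over that of Fcgr3, per kilobase, was 2.83 ± 1.00 in bTBI retinas and 4.27 ± 1.42 in sham retinas at 5 weeks (SD, n = 6 each), and 4 of 6 bTBI retinas were below every sham retina. At 8 days it was 1.78 ± 0.368 in bTBI and 1.89 ± 0.953 in sham retinas. This ratio was looked at after the values were seen and was not tested.

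**Figure D4:**
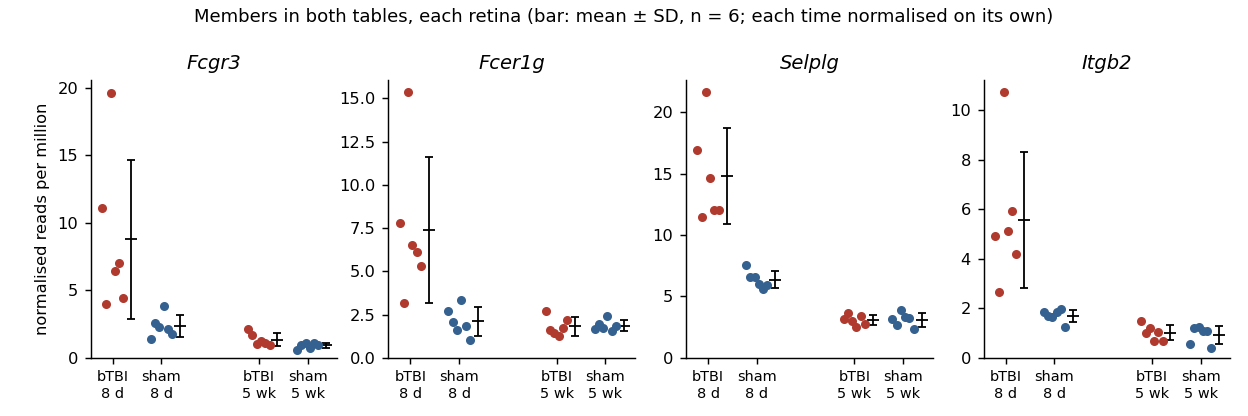
Normalised reads (CPM, vertical axes, a scale of its own for each gene) of the 4 genes with a row at both times, in each retina, in the order bTBI and sham at 8 days, bTBI and sham at 5 weeks. Points are retinas and bars the mean ± SD (n = 6 each). The groups lie apart or nearly so at 8 days, and at 5 weeks they overlap for each gene.

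Sham retinas also had lower values at 5 weeks than at 8 days: 3.10 ± 0.556 CPM at 5 weeks and 6.36 ± 0.689 CPM at 8 days for Selplg, 0.913 ± 0.206 CPM at 5 weeks and 2.34 ± 0.838 CPM at 8 days for Fcgr3, and 0.924 ± 0.358 CPM at 5 weeks and 1.71 ± 0.244 CPM at 8 days for Itgb2. Fcer1g was closer, 1.85 ± 0.310 CPM at 5 weeks and 2.10 ± 0.834 CPM at 8 days (SD, n = 6 each). The tables were normalised apart and the RNA kits differed, so these levels stand side by side with no test. The difference between the bTBI effects at 8 days and at 5 weeks was not tested either.

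**Figure D5:**
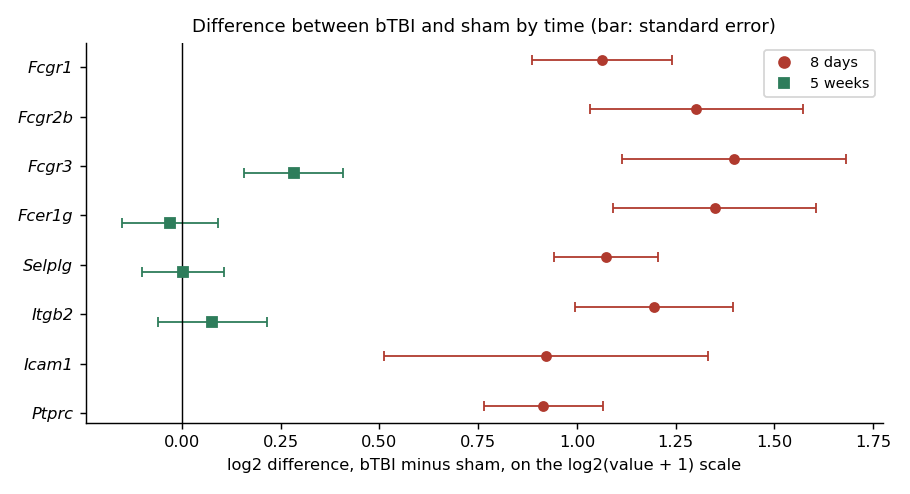
Difference between bTBI and sham retinas on the log2(CPM + 1) scale (horizontal axis, bTBI minus sham, line at 0) for each gene with a row, at 8 days (circles) and at 5 weeks (squares). Bars are standard errors from limma with 6 retinas a group. The 8-day differences lie between 0.92 and 1.40 and were used to choose the genes, and the 5-week differences lie between -0.03 and 0.28.

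Of the 8 pathway lists, 66 genes had a row at 5 weeks. None passed the test with limma or edgeR, 1 (Cd44) passed with DESeq2, and 9 had an unadjusted p under 0.05, of which 5 were higher in bTBI retinas. Cd44 came nearest of the genes named above, with 10.3 ± 1.25 CPM in bTBI and 7.73 ± 0.859 CPM in sham retinas (log2 difference 0.37, SE 0.08, limma adjusted p = 0.0167), with 6 of 6 above every sham retina, as in 0.239% of genes. DESeq2 gave it an adjusted p of 0.00229. Of 11 microglia markers with a row none passed the test with limma, edgeR or DESeq2, and 2 had an unadjusted p under 0.05. Their summed value was 79.8 to 94.6 CPM in bTBI retinas, against 75.7 to 85.2 CPM in sham retinas. Retinal ganglion cell markers, in contrast, fell in bTBI retinas in 8 of 8 genes at both times (limma, adjusted p under 0.005). Of all genes tested, 0.985% fell at 8 days and 0.823% at 5 weeks. With edgeR 7 of the 8 fell at 8 days.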

How the data were processed

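Total RNA of whole retinas was enriched for polyadenylated transcripts, made into stranded libraries and sequenced as 75-base read pairs. Per the labels and the methods of the study, the authors used STAR for mapping to GRCm38 (mm10), featureCounts for gene counts and edgeR, at an FDR of 0.005, for group comparisons. The deposited signal values are the authors' gene counts over a library size for each retina, on the CPM scale. Low genes had been removed. Within each retina 100% of values were whole multiples of 1 read to within 0.01 of a read, and read totals per retina were taken from these multiples. They limit the precision of low genes.

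Symbols were matched to 14907 of 14922 and 15902 of 15920 gene identifiers. The log2(CPM + 1) values of each time were compared with limma 3.58.1 (R 4.3.3, prior with a mean trend), and p was adjusted by Benjamini-Hochberg over every gene in the table. The threshold was an adjusted p of 0.005, and fold changes of low genes are understated by the pseudocount of 1. Interpretation of p is limited to the spread between 6 mice a group. edgeR 4.0.16 and DESeq2 1.42.0 were run on the recovered reads as alternatives. The fit was tested on simulated data. The design had been laid out for counts. Named genes are the 9 genes, up to 4 genes a pathway list by smallest p among those past the threshold at either time, and the 5 genes most like Selplg and Fcer1g. Other genes named with values, such as Fcrls, Trim21, Tyrobp, Syk and Vcam1, were chosen after their values were seen. The 9 genes and the lists were chosen with earlier results of these data known. Gene lengths are the union of exons in GENCODE vM21.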

Additional observations from a re-analysis of the deposited data

Results flagged for a closer look

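In 3 of 56 groups of 6 retinas checked, 1 retina stood far from the other 5 by Dixon's criterion, and chance alone gives about 1 in 20. At 8 days bTBI replicate 3 had 9.68 CPM of Fcgr2b, where the next retina had 3.77 CPM and the lowest 1.13 CPM. Sham replicate 2 had 6.80 CPM of Icam1, where the next had 2.72 CPM and the lowest 0.272 CPM. Sham replicate 4 had 12.3 CPM of F11r, where the next had 9.40 CPM and the lowest 7.99 CPM.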

How the results depend on the processing

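At 8 days 336 genes passed the threshold. The count was 335 with edgeR and 688 with DESeq2 on the recovered reads, 685 with all 24 retinas in 1 fit, 907 at an adjusted p of 0.05, 112 without both lens-rich bTBI retinas, and 189 to 486 when 1 retina was left out. At 5 weeks 133 genes passed, with 127 by edgeR, 236 by DESeq2, 75 with all 24 retinas in 1 fit, 56 with a prior without trend, 326 at an adjusted p of 0.05, and 88 to 163 when 1 retina was left out. The cause of these shifts was not tested. A replicate block gave 293 genes at 8 days and 134 at 5 weeks. The labels do not pair the mice: same-numbered retinas had correlations of -0.25 to 0.54 at 8 days and -0.11 to 0.15 at 5 weeks, and at most 1 of 6 bTBI retinas correlated best with its own number.

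The 8-day differences of the 8 genes were above 0 in all fits run. For Fcgr1, Fcgr2b, Itgb2 and Ptprc they moved by over 1 standard deviation with edgeR or DESeq2, which take no pseudocount on this scale (Fcgr1 1.70 and 1.71, Fcgr2b 2.26 and 2.29, Itgb2 1.71 with both, Ptprc 1.65 and 1.66). The 5-week differences near 0 changed sign: Selplg was -0.0145 with edgeR and -0.0113 with DESeq2, and when 1 retina was left out Selplg ran from -0.057 to 0.056, Fcer1g from -0.11 to 0.028 and Itgb2 from -0.0085 to 0.13. That of Ighm at 5 weeks ran from -0.0079 (without bTBI replicate 5) to 0.17 (without bTBI replicate 4). None of the 4 passed in any of these fits. Low read numbers limit what could be seen, as in sham retinas at 8 days, with 4 to 160 reads for Icam1 and 8 to 30 for Fcgr2b.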
